A study of Rattus norvegicus with 12 samples.

Results

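Rps15a, Rps19, Rps9, Rpl41 and Rpl39 are 5 genes for proteins of the cytosolic ribosome whose liver signals were highest in rats fed a dairy diet. They are 5 of the 14506 genes named on the array. Every probe set (a group of probes summarised to 1 value per array) that the platform annotation ties to 1 of these symbols alone was taken. This gave 24 probe sets, of 15310 with a single symbol. The genes were chosen by their signals in these same livers: each has a probe set past the limma threshold (adjusted p under 0.05) in dairy against casein. Their differences between dairy and casein, and dairy standing above leucine, are therefore given as a description with no test.

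Livers were taken at 20 weeks of age from male Sprague-Dawley rats of a line with diet-induced obesity. From 12 weeks of age each rat ate freely, for 8 weeks, 1 of 3 high fat, high sucrose diets of 4.6 kcal per gram with 10% of energy from protein. In the dairy diet the protein was complete dairy as skim milk powder. In the leucine diet it was casein at 7.1% and leucine at 2.9% of energy, and in the casein diet, the control, it was casein alone. Each diet has 4 arrays (replicates 1 to 4), and no label says that livers were pooled. Dairy protein cannot be told apart from the rest of skim milk powder, nor added leucine from less casein. Albumin, the plasma protein that marks hepatocytes, had mean log2 signals of 13.67 with dairy, 13.66 with leucine and 13.78 with casein, so all groups carried the liver label's defining transcript. In whole tissue, fewer cells of a type and less RNA per cell cannot be told apart.

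The ribosome is built from a small and a large subunit, each an RNA core with many proteins. Messenger RNAs of ribosomal proteins begin with a tract of pyrimidines (C and T), the 5′ terminal oligopyrimidine tract, through which mTORC1, a kinase that senses amino acids such as leucine, controls their translation. Rps15a, Rps19 and Rps9 belong to the small subunit. Rps19 is needed to mature the small-subunit RNA and is mutated in a human anaemia, Diamond-Blackfan anaemia, and Rps9 is known from yeast to help keep decoding accurate. Rpl41 and Rpl39 are very small, basic proteins of the large subunit, and Rpl39 lines the exit tunnel of the growing chain.

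In the rat genome (RefSeq, build GRCr8) the genes lie on 3 chromosomes. Rps15a is at chr1:181854396-181861330, Rps19 at chr1:89608408-89614390, Rps9 at chr1:74427084-74430513, Rpl41 at chr7:1562417-1563497 and Rpl39 at chrX:121192901-121195896. Processed pseudogenes are copies of an mRNA put back into the genome, and ribosomal protein genes have many. The RefSeq table lists 51 pseudogenes named after these 5 genes: 7 for Rps15a, 15 for Rps19, 16 for Rps9, 1 for Rpl41 and 12 for Rpl39. Which copies a given probe set can bind is not given in the sources used here, so a value below stands for the gene together with any copy its probes match.

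The start regions are shown because the pyrimidine tract lies there. The sequences run 5′ to 3′ from 40 bases before to 30 bases after the start that RefSeq's table gives, and capitals mark the longest unbroken run of C and T between 20 bases before and 30 bases after the start. They lie at chr1:89608648-89608717 (plus strand) for Rps19, chr1:74430408-74430477 (minus) for Rps9, chr7:1563468-1563537 (minus) for Rpl41 and chrX:121195867-121195936 (minus) for Rpl39.
Rps19: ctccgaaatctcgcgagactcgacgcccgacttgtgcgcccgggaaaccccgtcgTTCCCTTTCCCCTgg
Rps9: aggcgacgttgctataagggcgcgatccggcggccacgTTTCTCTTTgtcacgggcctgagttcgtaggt
Rpl41: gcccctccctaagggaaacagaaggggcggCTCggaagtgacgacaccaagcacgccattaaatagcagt
Rpl39: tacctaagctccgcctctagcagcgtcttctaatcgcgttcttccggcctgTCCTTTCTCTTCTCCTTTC

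The run in the Rpl39 window was 19 bases long, and 0.46% of 33469 rat promoter windows held a run at least as long. It ended at the last base searched, so the full run may be longer. In the Rps19 window the run was 13 bases (2.84% of windows), in the Rps9 window 9 bases (12.6%) and in the Rpl41 window 3 bases (96.6%). The median was 5 bases over all windows and 10.5 over 62 windows of other cytosolic ribosomal protein genes. Of the 4 runs, that of Rps9 covered the annotated start itself. The table's start for Rps15a lies 1046 bases inside the gene, so its window is not shown. The starts used for Rps19 and Rps9 lie 280 and 76 bases inside their genes. The full 300-base windows of all 5 genes were searched on both strands for 3 sets of letters, none of which contains another. The Rps15a window, which lies inside the gene, was among them. Letters missing from it do not describe the outer start of Rps15a. The letters CCGGAA (the core bound by ETS factors) were found for Rpl41 and Rpl39, and GGGCGG (the core bound by Sp1) for Rps9, Rpl41 and Rpl39. CCGGAA occurred in 5004 of the 33469 windows and in 32 of the 62 of other ribosomal protein genes (51.6%). GGGCGG occurred in 33.1% of all windows and in 58.1% of those 62. AAGATGG, a core bound by YY1, was in none of the 5 windows, in 19.4% of those of other ribosomal protein genes and in 7.01% of all. A match of letters is a description and not a binding site.

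Every one of the 24 probe sets had its highest mean with dairy, the next with leucine and the lowest with casein. Over all named probe sets that order held for 19.6%, and leucine stood above casein for 43.8%. In dairy against casein, 13 of the 24 passed the threshold, where 0.0849% of all probe sets passed as higher, and this is the count that chose the genes. In all 24 the 4 dairy arrays lay above the 4 casein arrays, against 2.09% of all probe sets, and the choice made that likely. The median log2 difference over the 24 was 1.30 in dairy minus casein, beside -0.02 over all probe sets. It was 0.78 in leucine minus casein (0.66 over the 21 probe sets with distinct values), beside -0.03 over all. Both comparisons use the same 4 casein arrays. Below, the value of a gene in a liver is the mean log2 signal over its probe sets. Signals of different genes depend on their probes and are not set against each other.

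**Figure D1:**
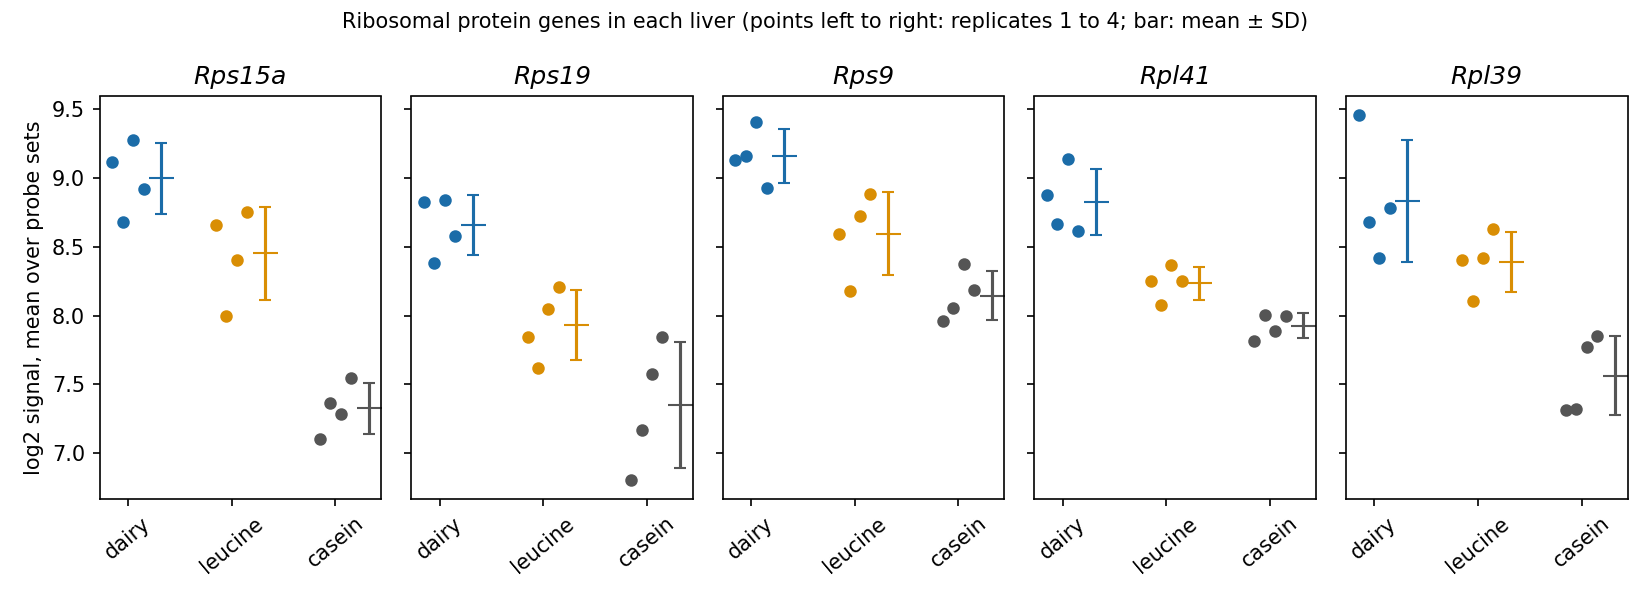
Log2 signal (vertical axis, mean over the probe sets of a gene) in each liver for the 5 genes, by diet; points are replicates 1 to 4 from left to right, and the bar beside them is the mean ± SD (n = 4). The dairy points lie above all casein points in each panel and the leucine mean lies between, while leucine points overlap dairy for Rps15a and Rpl39 and casein for Rps19 and Rps9; levels are not comparable between panels.

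Rps15a, a small-subunit protein, had the widest gap between dairy and casein of the 5 genes. Its signal was 9.11, 8.68, 9.28 and 8.92 in dairy livers 1 to 4, then 8.66, 8.00, 8.40 and 8.75 in leucine livers, and 7.11, 7.37, 7.29 and 7.55 in casein livers. Dairy and leucine livers overlapped, and both groups lay wholly above casein. Dairy minus casein was 1.67 ± 0.16 (log2, SE from the 4 values of each diet), which is 3.18-fold. Leucine minus casein was 1.13 ± 0.19, or 2.18-fold, and dairy minus leucine 0.54 ± 0.21.

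Among the 6 probe sets of Rps15a, dairy minus casein ran from 1.39 for 10874691 to 1.84 for 10760208. The same probe sets were the lowest and the highest in leucine minus casein (0.84 and 1.35). In each of the 6, dairy replicate 3, leucine replicate 4 and casein replicate 4 were the highest livers of their diets. Dairy replicate 2, leucine replicate 2 and casein replicate 1 were likewise the lowest in all 6.

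Rps19, the small-subunit protein named for the anaemia above, had signals of 8.82, 8.38, 8.84 and 8.58 in dairy livers, against 7.85, 7.62, 8.05 and 8.21 in leucine livers and 6.80, 7.17, 7.58 and 7.85 in casein livers. Dairy livers lay above all others, while the leucine and casein livers overlapped. The casein livers were spread most widely of all 5 genes and 3 diets, with an SD of 0.457 (n = 4). Dairy minus casein was 1.31 ± 0.25 (2.47-fold), leucine minus casein 0.58 ± 0.26 and dairy minus leucine 0.72 ± 0.17. Over its 5 probe sets dairy minus casein ran from 1.12 to 1.40, and the dairy arrays lay above the leucine arrays in 5 of 5. Leucine minus casein ran from 0.42 to 0.66, with the arrays separated in 1 of 5.

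Rps9, the decoding protein, was measured by 3 probe sets. Its signals were 9.13, 9.16, 9.41 and 8.93 in dairy livers, against 8.59, 8.18, 8.72 and 8.88 in leucine livers and 7.96, 8.05, 8.37 and 8.18 in casein livers. The lowest dairy liver stood just above the highest leucine liver, and leucine overlapped casein. Dairy minus casein was 1.01 ± 0.13 (2.02-fold), leucine minus casein 0.45 ± 0.18 and dairy minus leucine 0.56 ± 0.18. Its probe sets differed from casein by 0.94, 1.00 and 1.10 with dairy.

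Rpl41, the smallest protein of the large subunit, had signals of 8.88, 8.67, 9.14 and 8.62 in dairy livers, 8.25, 8.07, 8.36 and 8.25 in leucine livers and 7.82, 8.00, 7.89 and 8.00 in casein livers. The 3 diets did not overlap at the level of the gene, and casein livers varied little (SD 0.089, n = 4). Dairy minus casein was 0.90 ± 0.13 (1.86-fold), leucine minus casein 0.31 ± 0.07 and dairy minus leucine 0.59 ± 0.13. Its probe sets differed in the size of dairy minus casein. Probe sets 10899824 and 10774894 differed from casein by 1.08 and 1.06 with dairy, and the third, 10877581, by 0.55. The third had a mean log2 signal of 5.07 with dairy, 4.65 with leucine and 4.52 with casein, near the medians of whole arrays (4.432 to 4.616).

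Rpl39, in the wall of the exit tunnel, had signals of 9.46, 8.68, 8.42 and 8.78 in dairy livers, 8.40, 8.10, 8.42 and 8.63 in leucine livers and 7.31, 7.32, 7.77 and 7.85 in casein livers. Dairy replicate 1 stood well above the other dairy livers, of which only replicate 3 lay within the range of the leucine livers. Every dairy and leucine liver was above every casein liver. Dairy minus casein was 1.27 ± 0.26 (2.41-fold), leucine minus casein 0.82 ± 0.18 and dairy minus leucine 0.45 ± 0.25. Without dairy replicate 1 the difference between dairy and leucine was 0.24. Of the 7 Rpl39 probe sets, 10782917, 10829688, 10895022 and 10937820 held identical values on all 12 arrays. They are 1 measurement, which leaves 4 distinct ones for this gene and 21 for the 5 genes. Counts out of 24 include the copies, and the main ones are also given out of 21. The distinct Rpl39 probe sets differed from casein by 1.20 to 1.30 with dairy and by 0.78 to 0.85 with leucine.

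**Figure D2:**
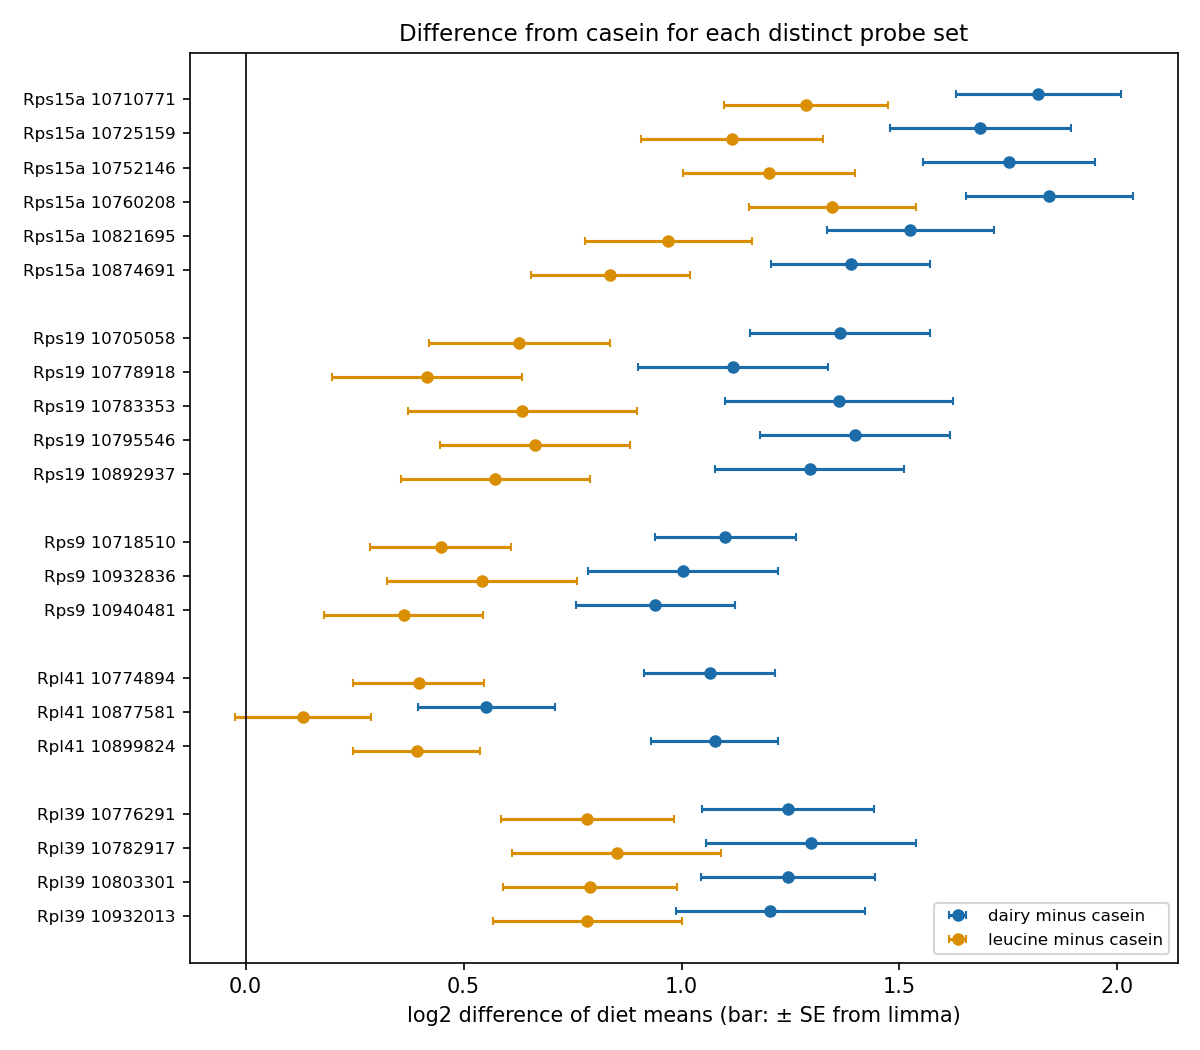
Log2 difference of diet means (horizontal axis) for the 21 probe sets with distinct values, dairy minus casein in blue and leucine minus casein in orange; bars are ± SE from limma. All blue points lie right of the orange point of the same probe set, and Rpl41 10877581 is the lowest for both.

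Leucine against casein was not the comparison that chose the genes, although its casein arrays were. In that comparison 0 of the 24 probe sets passed limma's test, and 0% of all probe sets did in either direction. At an unadjusted p under 0.05 there were 21 of the 24 (18 of the 21 with distinct values), against 507 of all 15310 (3.31%). Rps15a 10760208 was 2.54-fold higher with leucine (log2 1.35, 95% interval 0.93 to 1.76; limma adjusted p = 0.12). Its leucine arrays all lay above its casein arrays. It shared the smallest adjusted p of the whole table with Rps15a 10710771 (log2 1.29, adjusted p = 0.12). The remaining Rps15a probe sets had adjusted p between 0.233 and 0.999, and those of the other 4 genes 0.999. The intervals of 3 probe sets held 0: Rpl41 10877581 (-0.21 to 0.47), Rps19 10778918 (-0.06 to 0.89) and Rps9 10940481 (-0.03 to 0.76). Those of the other 21 lay above 0. These intervals are not adjusted for the number of probe sets.

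Same-numbered leucine and casein arrays correlated in their deviations from the diet means, at 0.208 to 0.532 in 4 of 4 pairs, although no label says what a number shares. Within pairs, leucine was above casein in all 4 for 22 of the 24 probe sets (19 of the 21 with distinct values), against 5.41% of all probe sets. In 16 of the 24 all 4 leucine arrays lay above all 4 casein arrays. For those 16 any pairing gives the same outcome, so this count is not separate evidence. With the replicate number as a block in these 8 arrays, 0 of the 24 passed limma's test (smallest adjusted p among them 0.504), and 1 probe set of all 15310 did. At an unadjusted p under 0.05 in that fit there were 22 of the 24, against 894 of all 15310.

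One leucine liver bears on this result. Replicate 2 was the lowest leucine liver in 24 of 24 probe sets, and without it both leading Rps15a probe sets passed (log2 1.49 and 1.43, limma adjusted p = 0.0429 for each). Under the other alternatives none of the 24 did. The share of all probe sets that passed without leucine replicate 2 is not given here. By separation of the arrays, 16 of the 24 probe sets had all 4 leucine values above all 4 casein values, where 1.06% of all probe sets did (13 of the 21 with distinct values). They were all those of Rps15a and Rpl39, 2 of Rpl41 and 1 of Rps19. That count was 8 after quantile normalization and 3 with all arrays scaled to 1 spread. The share of all probe sets separated after those 2 steps is not given here, so a general drop cannot be told apart from one in these genes.

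Dairy and leucine arrays were separated, dairy above, in 10 of the 24 probe sets (10 of the 21 with distinct values), against 3.04% of all. All 5 of Rps19, all 3 of Rpl41 and 2 of 3 of Rps9 were among them, and none of Rps15a or Rpl39. Dairy minus leucine ran from 0.42 to 0.74 over the 24 probe sets (median 0.55). Leucine minus casein ran from 0.13 to 1.35, and its low end, Rpl41 10877581, was 0.06 without casein replicate 1 and 0.21 without casein replicate 4. Side by side, Rps15a had 1.13 in leucine minus casein and 0.54 in dairy minus leucine, while Rpl41 had 0.31 and 0.59. Whether these patterns differ between the genes was not tested.

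Within a diet the probe sets of Rps15a, Rps19 and Rpl39 moved together from liver to liver, and those of Rpl41 and Rps9 less closely. After the diet means were taken away, 1 Rps15a probe set varied with an SD of 0.25 to 0.30 over the 12 arrays, whereas the difference between 2 Rps15a probe sets varied by 0.04 to 0.11 (15 pairs). For Rps19 the SD of a difference was 0.04 to 0.15 (10 pairs) and for Rpl39 0.03 to 0.11 (6 pairs). Rpl41 and Rps9, with 3 pairs each, had 0.07 to 0.19 and 0.17 to 0.28. Single probe sets of these genes varied with an SD of 0.17 to 0.20 for Rpl41 and 0.21 to 0.32 for Rps9. Between probe sets of different genes among the 5, the SD of the difference was 0.17 to 0.43 (173 pairs). Probe sets of 1 gene share their target, so they are not separate evidence for it.

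**Figure D3:**
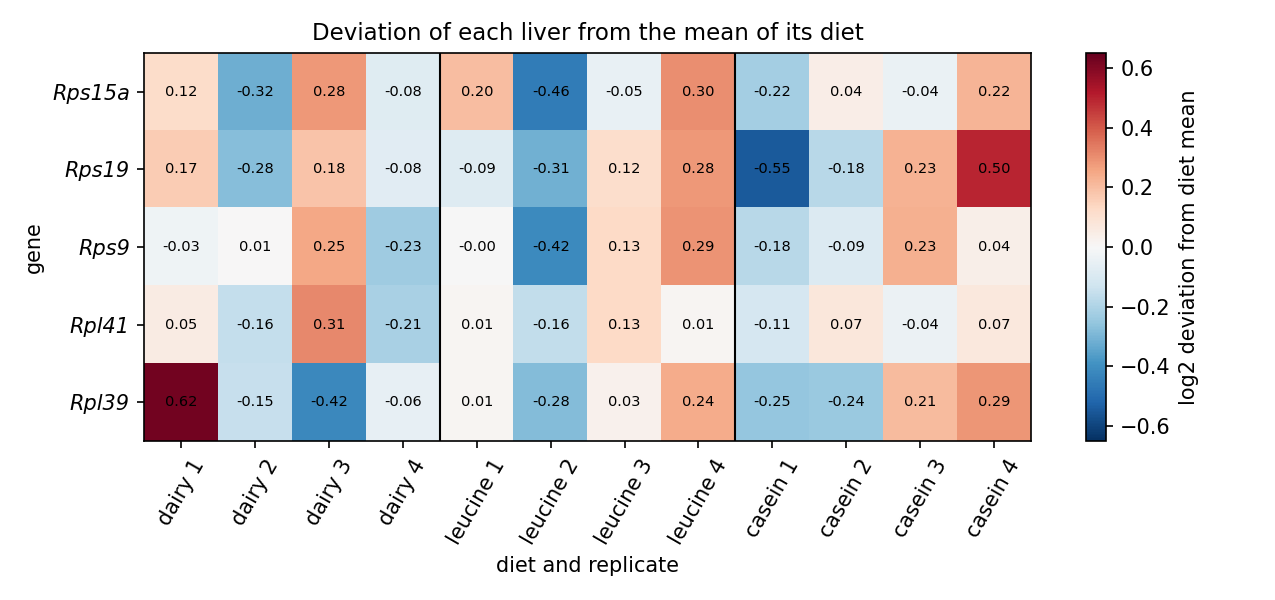
Deviation of each liver from the mean of its diet (colour and number, log2), for the 5 genes (rows) and 12 livers (columns: diet and replicate). Leucine replicate 2 is below its diet mean for every gene, and dairy replicates 1 and 3 go opposite ways for Rpl39, at 0.62 and -0.42.

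Which liver was high differed between genes. Leucine replicate 2 was low for all 5 genes, by 0.16 for Rpl41 up to 0.46 for Rps15a below the leucine mean. Dairy replicate 3 was the highest dairy liver in 14 of the 24 probe sets, among them all of Rps15a, Rps9 and Rpl41, and dairy replicate 1 in the other 10 (7 of them Rpl39, with its copies). For Rpl39 dairy replicate 3 was instead the lowest. Casein replicate 4 was the highest casein liver in 20 of 24.

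Dairy replicate 3 and casein replicate 4 were also the arrays whose signals had the narrowest spread over all probe sets, with an SD of 2.075 and 2.138 against 2.236 to 2.333 on the other 10. They are given here with and without. Without both, all 24 probe sets kept the order dairy, leucine, casein, and dairy minus casein was 1.65 for Rps15a, 1.41 for Rps19, 0.94 for Rps9, 0.82 for Rpl41 and 1.504 for Rpl39. Leucine minus casein was then 1.20, 0.75, 0.46, 0.33 and 0.92 in the same gene order. With all arrays centred and scaled to 1 spread the order again held in 24 of 24, but 0 of the 24 passed between dairy and casein, against 13 as deposited. With 1 array left out at a time that count ran from 3 to 23. The share of all probe sets that passed in these alternative fits is not given here.

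Markers of other cells that whole liver holds were read beside the 5 genes. Of 14 erythroid marker symbols 8 had a probe set. Their mean log2 signal was 5.398 to 5.601 in dairy livers, 4.99 to 6.52 in leucine livers and 4.91 to 5.265 in casein livers, so dairy and casein did not overlap. The haemoglobin gene Hbb averaged 10.76 with dairy, 10.79 with leucine and 9.69 with casein. Alas2, the red-cell enzyme of heme synthesis, averaged 5.25, 6.09 and 5.40, and Ahsp, a haemoglobin chaperone, lay between 2.26 and 2.57 in all diets. In dairy minus casein 7 of the 8 markers were higher (median 0.17) and 0 passed limma's test (1 at an unadjusted p under 0.05). In leucine minus casein all 8 were higher (median 0.36) and 0 passed (2 at an unadjusted p under 0.05). The part of blood in the signals of the 5 genes was not tested. Hepatocyte markers ranged between 12.288 and 12.695 with dairy, 12.378 and 12.715 with leucine, and 12.503 and 12.847 with casein. Of the 12, 10 had a lower mean with dairy than with casein (median difference -0.13) and 11 with leucine than with casein (-0.13). Of 12 neutrophil markers 10 had a higher mean with dairy than with casein (0.54) and 11 with leucine than with casein (0.44). None of these passed limma's test, and at an unadjusted p under 0.05 there were 2 hepatocyte and 1 neutrophil markers with dairy and 0 of each with leucine. Their part in the signals of the 5 genes was not tested. Lymphocyte markers were at 4.04 to 4.252, 3.91 to 4.224 and 3.94 to 4.205 in the same order. Neutrophil markers were at 4.389 to 6.284, 3.837 to 6.332 and 3.833 to 5.897, and Kupffer cell markers at 7.206 to 8.256, 7.452 to 8.461 and 7.689 to 8.049, and both overlapped between diets.

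Most other genes of the cytosolic ribosome also had their higher mean with dairy. Of 79 other ribosomal protein symbols 66 had a probe set, and 51 of these had a higher mean with dairy than with casein, with a median log2 difference of 0.32 beside -0.02 over all probe sets. None passed limma's test. At an unadjusted p under 0.05 there were 28 of the 66, where 10.9% of all probe sets were, and arrays were separated upward in 20 of the 66, against 2.09% of all. The highest were Rps12 (1.33, adjusted p = 0.0531), Rpl23a (1.02, adjusted p = 0.0641) and Rpl13 (1.00, adjusted p = 0.112). At the low end stood Rps3 (-0.52), Rps27 (-0.42) and Rpl4 (-0.36), with adjusted p from 0.502 to 0.577. The Rps27 probe set had mean log2 signals of 4.68 with dairy and 5.10 with casein, near the medians of whole arrays (4.432 to 4.616). The count that passed was 14 without casein replicate 4 and 12 once dairy replicate 3 was left out as well. Array weights gave 27. How many of all probe sets passed in these alternative fits is not given here. Without casein replicate 4, limma gave adjusted p = 0.0315 for Rps12, 0.0132 for Rpl23a, 0.0192 for Rpl13 and 0.0336 for Rps3. Rps12 also passed without casein replicate 3 (adjusted p = 0.0395).

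In leucine minus casein the median over these 66 genes was 0.15, with 46 higher and none past limma's test (14 at an unadjusted p under 0.05, against 3.31% of all probe sets). In dairy minus leucine it was 0.15, with 50 higher and none past the test (13 at an unadjusted p under 0.05, against 6.95% of all). For that last comparison limma called 0% of all probe sets. Among the 66, arrays were separated upward in 19 in dairy against leucine (3.04% of all probe sets) and in 7 in leucine against casein (1.06% of all).

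At the threshold that chose the genes, just inside stood Rpl39 10776291 and 10803301, with log2 differences of 1.24 and 1.25 between dairy and casein (adjusted p = 0.0436 for each). Just outside, all with adjusted p = 0.0531, stood Rps19 10892937 (1.29), Rps12 10839876 (1.33), Rps12 10702286 (1.15), Chchd2l3 10930091 (1.17), Rpl23a 10768569 (0.99) and Rpl32 10732821 (0.77).

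Other genes of the translation machinery were split between higher and lower means. Of 14 measured genes whose mRNAs also carry a pyrimidine tract, such as elongation factors, 6 had higher and 8 lower means with dairy than with casein. Their median was -0.06, from Eif3h, a subunit of initiation factor 3, at -0.78 (adjusted p = 0.199) to the elongation factor subunit Eef1b2 at 0.52 (adjusted p = 0.435). Among 18 ribosome assembly genes 9 were higher and 9 lower (median -0.01), from Wdr12, a large-subunit assembly factor, at -0.90 (adjusted p = 0.498) to the transcription factor Myc at 0.74 (adjusted p = 0.721). Of 8 genes that control translation, 2 were higher and 6 lower (median -0.17), from the cap-binding protein Eif4e at -0.73 (adjusted p = 0.443) to its inhibitor Eif4ebp1 at 0.76 (adjusted p = 0.419). None of these lists had a gene past limma's test in dairy against casein, and at an unadjusted p under 0.05 there were 5, 0 and 2, against 10.9% of all probe sets. Eif4ebp1 passed without casein replicate 4 (limma adjusted p = 0.027) and without both narrow arrays (0.0326). With array weights Eif4ebp1 (0.0164), Eif3h (0.0172) and Eef1b2 (0.0483) passed. In leucine minus casein their medians were 0.02, 0.03 and -0.06, again with none past the test (2, 0 and 0 at an unadjusted p under 0.05).

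**Figure D4:**
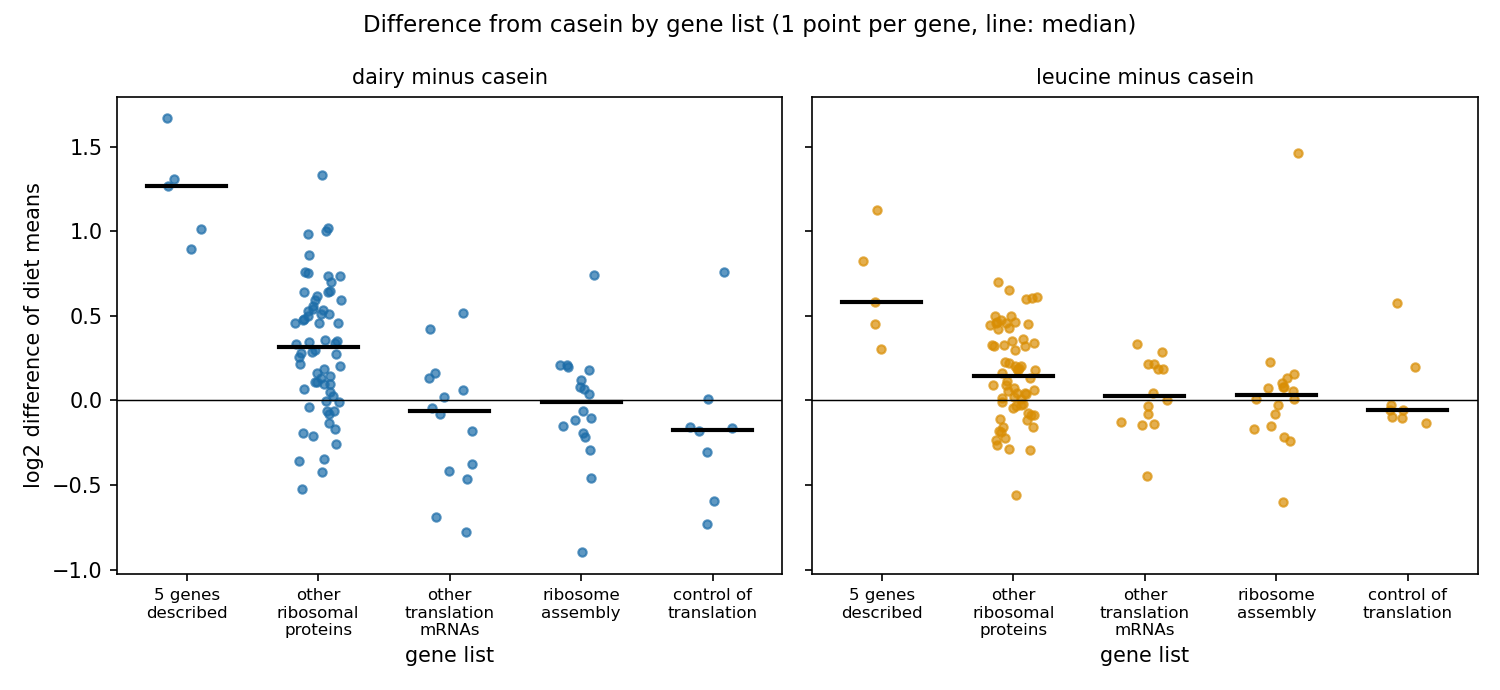
Log2 difference of diet means (vertical axis) for dairy minus casein and leucine minus casein; each point is 1 gene and the black line the median of its list. In dairy minus casein the 5 genes, chosen for that comparison, span 0.90 to 1.67; the other 66 ribosomal protein genes centre on 0.32 and 0.15, the remaining medians lie between -0.17 and 0.03, and the highest point for leucine is Myc at 1.46.

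Among 14501 other genes, those whose pattern over the 12 arrays was most like the average of the 5 were Chchd2l3 (Pearson r = 0.950), Rps14 (0.948), Rpl27a (0.942), Plekha4 (0.932) and Rpl22 (0.927). Rps14, Rpl27a and Rpl22 are ribosomal proteins. Chchd2l3 averaged 9.23 with dairy, 8.82 with leucine and 8.06 with casein. When diet means were removed, the closest were Fgf17 (0.909), Irf4 (0.907), Tbx21 (0.875), Or52ad1 (0.869) and Slc6a4 (0.868). These 5 had mean log2 signals between 3.65 and 4.98 in each diet, and none is a ribosomal protein gene. The correlations share arrays with any array-wide shift and are given as a description, with n = 12.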

How the data were processed

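The authors deposited 1 log2 signal per probe set and array (Rat Gene 1.0 ST, per the labels). The submitters' processing notes name Affymetrix Expression Console; its version, its algorithm and a build were not given in the sources used here. The deposited table holds 29214 probe sets; 15310 had 1 gene symbol in the platform annotation, 323 several and 13581 were not listed there. The Entrez IDs of 15279 were in the RefSeq table; that of Rps9 was not and was matched by symbol. Array medians of the deposited values ran from 4.432 to 4.616, so spread between arrays remained, and the number of arrays limits precision.

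limma 3.58.1 in R 4.3.3 was fitted on 3 diet means over 12 arrays (eBayes, 9 residual and 3.45 prior degrees of freedom), two-sided, with Benjamini-Hochberg adjustment over 15310 probe sets at 0.05. The labels do not tie each array to its own rat, so p-values measure spread between these samples. On simulated data for leucine against casein (15310 probe sets, 200 changed), 55 of 100 changes of log2 1 and 89 of 100 of log2 2 were called. The simulated noise was independent between probe sets and arrays, unlike the correlated arrays here. These counts are therefore a check of the fit and not the power of the real comparison.

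The 5 genes, gene lists and marker lists were chosen with earlier results of these data known. For lists, each gene was represented by its probe set of highest mean. From the ribosomal list the 3 highest and 3 lowest in dairy minus casein are named, from the other lists the highest and the lowest, and the 5 genes of highest correlation. Alternatives were other normalizations, filters, variance models, array weights, array subsets and a replicate block. Deviations of same-numbered arrays correlated by 0.208 to 0.532 between casein and leucine (4 of 4 pairs over 0.1), so the block was also fitted in those 8 arrays, an alternative added after seeing the data. With dairy some pairs were below 0 (lowest -0.505), and the numbers were not taken to pair those samples.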

Additional observations from a re-analysis of the deposited data

Results flagged for a closer look

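For Rpl39 10932013, dairy replicate 1 had a log2 signal of 9.558, against 8.702 to 8.841 in the other dairy livers. Its gap took 0.838 of the range of the group, above Dixon's 95% critical value for 4 samples. It was the only one of 78 groups of 4 (5 gene means and 21 distinct probe sets in 3 diets) so marked, and chance marks about 1 in 20.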

How the results depend on the processing

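All mean differences of the 5 genes kept their sign under each alternative run (24, or 25 for leucine minus casein), and each of the 24 probe sets kept the order dairy, leucine, casein under 16 alternatives chosen after seeing the data. In dairy minus casein the sign could not turn when arrays were left out or weighted. The dairy arrays already lay above the casein arrays in all 24 probe sets. Dairy standing highest in that order is also part of how the genes were chosen. Scaling to 1 spread gave larger values for Rps9 (1.279) and Rpl41 (1.142) in dairy minus casein and for Rpl41 (0.7621) in dairy minus leucine. The cause was not tested. The brightest Rpl41 probe set alone gave 1.076 in dairy minus casein, whereas the mean for the gene includes probe set 10877581 at 0.55. The number of the 24 passing in leucine against casein stayed at 0, except with single arrays left out, where it ran from 0 to 2. The number passing in dairy against casein was 13 and ran from 0 (scaled to 1 spread) to 24 (array weights). It was 3 without casein replicate 1 or dairy replicate 1, 6 without casein replicate 2, 23 without casein replicate 4, 7 without dairy replicate 2 or leucine replicate 1, 8 without dairy replicate 4 or leucine replicate 3, 8 with trend and robust, 6 with the 8 arrays of those diets and 21 without both arrays of narrowest spread. Of the other ribosomal protein genes none passed between dairy and casein as reported, against 3 after quantile normalization, 1 with median centring, 1 with all probe sets in the file, 27 with array weights, 12 without both arrays of narrowest spread and 0 to 14 with single arrays left out. With the replicate block 1 of them passed, and 12 of the 24 probe sets did in dairy against casein. In leucine against casein 0 of the 24 passed with the block, over 12 or 8 arrays. For dairy against casein, the share of all probe sets passing is given for the main fit alone (0.0849%). A general rise in calls under an alternative therefore cannot be told apart from a rise in these genes. Dairy and leucine were separated in 16 of 24 probe sets without both narrow arrays, in 16 with dairy replicate 2, dairy replicate 3 or leucine replicate 4 left out alone, and in 6 after scaling. The share of all probe sets separated under these alternatives is not given here. With fewer arrays separation is easier for any probe set, so these counts are not a result about the 5 genes. Rpl41 10877581 lay near the array medians (means of 4.52 to 5.07).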
